A study of Homo sapiens with 12 samples.

Results

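The 9 genes described here, 8 chemokine ligands (CCL2, CCL20, CX3CL1, CXCL1, CXCL2, CXCL3, CXCL5 and CXCL16) and the adhesion receptor gene ICAM1, were taken by symbol from a table of 57773 genes. The set was proposed with earlier results of these data known, so its counts beside the share of all genes are a description and not an unselected comparison. Their RNA was measured in PANC-1, a long-established human line derived from a ductal carcinoma of the pancreas. The 4 groups, of 3 libraries each, were the DMSO vehicle, chaetocin at 30 nM, MLN8237 at 90 nM, and the 2 compounds together at those doses, all for 24 h. Chaetocin is a fungal metabolite used as an inhibitor of histone lysine methyltransferases, and MLN8237 (alisertib) inhibits the mitotic kinase Aurora A. The combination libraries carry the code MLN3237 in their labels, which was read here as MLN8237. Whether a group's libraries were separate cultures is not in the labels, and p-values therefore measure only the spread between libraries, which may be technical. All results concern 1 cell line.

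Chemokines are small secreted proteins that draw leukocytes along a gradient through G-protein-coupled receptors. CX3CL1 and CXCL16 are made as membrane proteins that can tether cells directly and are released by proteases, and ICAM1 is the surface ligand to which leukocyte integrins bind. In epithelial and carcinoma cells many of these genes are known targets of NF-kB, whose RELA and NFKB1 subunits are held in the cytoplasm by IkB proteins and bind short kB sites in promoters.

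Positions in the deposited table are on hg19. CXCL1 (ENSG00000163739) lies at chr4:74735110-74736959, CXCL5 at chr4:74861359-74864496, CXCL3 at chr4:74902306-74904524 and CXCL2 at chr4:74962752-74965010, a run of related ligands on 1 chromosome. CCL2 (ENSG00000108691) lies at chr17:32582304-32584222 and CXCL16 at chr17:4636821-4643217. CX3CL1 (ENSG00000006210) lies at chr16:57406370-57418960, CCL20 at chr2:228678558-228682272 and ICAM1 (ENSG00000090339) at chr19:10381511-10397291.

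RefSeq promoter sequences (GRCh38.p14, a later build than the table's) were matched for 6 of the 9 genes: CCL20, CXCL1, CXCL2, CXCL3, CXCL5 and ICAM1. The other members, CCL2, CX3CL1 and CXCL16, are named only. A stretch of 60 bases upstream of each start is shown because it holds the letters of a kB-like motif, in capitals, 5′ to 3′ on the strand of the gene. In order they lie at chr4:73869289-73869348 (plus strand), chr4:74099239-74099298 (minus), chr4:74038734-74038793 (minus), chr4:73998734-73998793 (minus), chr19:10270908-10270967 (plus) and chr2:227813737-227813796 (plus).
CXCL1: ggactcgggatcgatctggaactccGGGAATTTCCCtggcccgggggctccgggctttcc
CXCL2: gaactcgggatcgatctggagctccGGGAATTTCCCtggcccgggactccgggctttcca
CXCL3: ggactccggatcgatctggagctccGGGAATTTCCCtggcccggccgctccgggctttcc
CXCL5: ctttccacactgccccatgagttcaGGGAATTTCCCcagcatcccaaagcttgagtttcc
ICAM1: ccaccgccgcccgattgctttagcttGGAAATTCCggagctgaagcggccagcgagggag
CCL20: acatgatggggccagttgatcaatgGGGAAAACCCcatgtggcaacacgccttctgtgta

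The letters GGAANTTCC, searched on both strands of the 300 bases from 250 before to 50 after the start, occurred in 5 of the 6 promoters and in 0.965% of 35116 RefSeq promoters. The letters GGGAA followed after any 3 bases by CC, which overlap the first motif in the CXCL genes, occurred in 5 of the 6 and in 6.9% of all promoters. Both motifs were chosen after the sequences had been seen, and a match describes letters, not binding. CXCL1, CXCL2 and CXCL3 shared more than the motif: the upstream sequences of CXCL1 and CXCL3 were identical at 81.4% of aligned bases, those of CXCL2 and CXCL3 at 73.3%, and those of CXCL1 and CXCL5 at 51.1%.

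Summed gene counts ran from 49439795 to 63747510 per library. The treated libraries numbered 3 stood apart from the rest on the second principal component of log2 CPM (gene counts scaled to library size), at -82.7 (MLN8237), -32.2 (chaetocin) and -28.1 (combination), against 3.3 to 34.8 in the other libraries. Low counts were more often even than odd: in every library more genes had 2 counts than 1, and 69.4% to 72.9% of counts from 2 to 5 were even, so the counting error of a low gene is larger than its count implies. Ductal epithelial markers (6 genes) were abundant, with a summed level of 4040 to 4640 CPM in vehicle, 2250 to 2420 with chaetocin, 4350 to 5130 with MLN8237 and 1850 to 2180 with both. The 9 leukocyte markers summed to 158 to 184, 170 to 237, 174 to 205 and 171 to 240 CPM in the same order, most of it CD68, while PTPRC and CD3E had no count in vehicle. Below these sums, 2 leukocyte markers rose with chaetocin from a very low level: PTPRC from 0 counts to 68, and to 122 with both (edgeR adjusted p = 0.000774 and 0.000132), and CSF1R from 8 to 101, and to 175 with both (adjusted p = 0.00102 and 0.000103). Against vehicle, ITGAM was called higher with both compounds (418 counts in vehicle and 791 with both) but not with chaetocin. The 5 endothelial markers summed to at most 0.347 CPM in vehicle, 1.94 with chaetocin, 0.248 with MLN8237 and 4.68 with both. TEK, VWF and CDH5 had no count in vehicle. VWF had 255 counts with chaetocin (edgeR adjusted p = 0.000304) and 555 with both. Against a floor of 3 counts over the vehicle group, VWF was at least 74.4-fold and 163-fold higher. PTPRC, CSF1R and VWF passed the filter on low counts, applied before the test, only through libraries with chaetocin, where they are high. Their p-values therefore depend on the filter. The 7 fibroblast and stellate cell markers summed to 64.7 to 80.7 CPM in vehicle, 55.3 to 63.5 with chaetocin, 54.5 to 62.8 with MLN8237 and 33.6 to 49.0 with both, and COL1A2 and DCN had no count in vehicle. The part of these marker levels in the results below was not tested. In bulk RNA a smaller share of expressing cells and less RNA per cell cannot be told apart.

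Levels between genes were compared per length, as counts per kilobase of the deposited gene length, scaled to the summed gene counts of the library as CPM is. In vehicle, CCL2 was the highest member at 76.7 ± 11.9 (SD, n = 3), above 98.4% of the 41618 genes with a count in any library. ICAM1 followed at 48.9 ± 1.02, then CX3CL1 at 5.49 ± 0.805. CXCL1 at 1.96 ± 0.539 and CXCL16 at 1.93 ± 0.274 did not differ beyond their spread. CXCL5 (0.0991 ± 0.0040), CCL20 (0.0584 ± 0.0254), CXCL2 (0.0233 ± 0.0232) and CXCL3 (0.0166 ± 0.00137) were close to the counting limit, and the spreads of CCL20 and CXCL2, and of CXCL2 and CXCL3, overlapped. Between the ends of this order the vehicle cells thus held 2 abundant transcripts, 3 intermediate ones and 4 that were barely counted.

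With chaetocin alone, CCL2, CXCL1, CX3CL1 and ICAM1 fell and no member rose. These were 4 of the 9 members, of which 7 passed the filter on low counts, whereas 11.9% of the 22831 genes tested were called lower and 12.6% higher (edgeR quasi-likelihood test, Benjamini-Hochberg adjusted p under 0.05). CXCL2 and CXCL3 did not pass the filter. The values per library below are CPM scaled by the trimmed mean of M-values, which compares libraries for 1 gene and not genes with each other.

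CCL2, the monocyte attractant that signals through CCR2, had 90.6, 75.7 and 104 CPM in the vehicle libraries and 15.4, 14.5 and 19.1 CPM with chaetocin. With MLN8237 it had 94.0, 89.9 and 158 CPM, and with both compounds 11.3, 15.9 and 13.5 CPM. Every library that received chaetocin lay below every library that did not, with no overlap. The log2 fold change of CCL2 against vehicle was -2.46 ± 0.218 (SE) with chaetocin (5.52-fold lower, edgeR adjusted p = 1.02e-05) and -2.73 ± 0.221 with both (6.64-fold lower, adjusted p = 3.31e-06). By size of the decrease with chaetocin, CCL2 was the 29th of the 22831 genes. The annotated gene AC005549.3, which overlaps CCL2, had 0.208 ± 0.0260 CPM in vehicle.

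CXCL1, a ligand of the neutrophil receptor CXCR2, had 3.08, 1.79 and 3.01 CPM in vehicle and 0.417, 0.564 and 0.554 CPM with chaetocin. It had 2.78, 2.6 and 4.96 CPM with MLN8237 and 0.405, 0.595 and 0.459 CPM with both. Again the 6 libraries with chaetocin lay below the 6 without it, and the second vehicle library was the lowest of those without. The log2 fold change of CXCL1 was -2.35 ± 0.311 with chaetocin (5.1-fold lower, edgeR adjusted p = 0.000216) and -2.43 ± 0.313 with both (adjusted p = 8.24e-05). CXCL1 shared 60 of its 1048 transcript windows of 50 bases (5.73%) with CXCL2 and 6 with CXCL3, so some reads could come from either gene, although CXCL2 and CXCL3 held at most 8 counts in any library.

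CX3CL1, fractalkine, the membrane-anchored ligand of CX3CR1, had 30.9, 31.2 and 39.5 CPM in vehicle and 8.30, 7.10 and 6.72 CPM with chaetocin. It had 34.5, 36.6 and 41.6 CPM with MLN8237 and 4.64, 7.12 and 3.52 CPM with both. The libraries with and without chaetocin did not overlap, and of the combination libraries the second lay among the chaetocin libraries while the others lay below them. The log2 fold change of CX3CL1 was -2.20 ± 0.205 with chaetocin (4.6-fold lower, edgeR adjusted p = 1.46e-05) and -2.74 ± 0.210 with both (6.66-fold lower, adjusted p = 2.4e-06).

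ICAM1 had 188, 190 and 182 CPM in vehicle and 56.7, 61.4 and 57.2 CPM with chaetocin. It had 203, 195 and 169 CPM with MLN8237 and 69.2, 64.2 and 67.6 CPM with both. ICAM1 varied least between replicates among the lowered members, and the combination libraries all lay slightly above the chaetocin libraries. Its log2 fold change was -1.68 ± 0.0865 with chaetocin (3.19-fold lower, edgeR adjusted p = 3.15e-07) and -1.48 ± 0.0860 with both (2.79-fold lower, adjusted p = 6.24e-07). By p, ICAM1 was the 4th of 22831 genes with chaetocin. The strand setting of the counting is not given in these sources, and 2 other annotated genes overlap ICAM1: CTD-2369P2.8 went from 63.6 ± 2.56 to 18.5 ± 1.57 CPM with chaetocin (log2 fold change -1.78 ± 0.152, edgeR adjusted p = 7.96e-06) and CTD-2369P2.5 from 22.9 ± 0.177 to 15.1 ± 0.962 CPM (-0.60 ± 0.114, adjusted p = 0.0023). The reads of ICAM1 and these overlapping genes may not be separable.

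**Figure D1:**
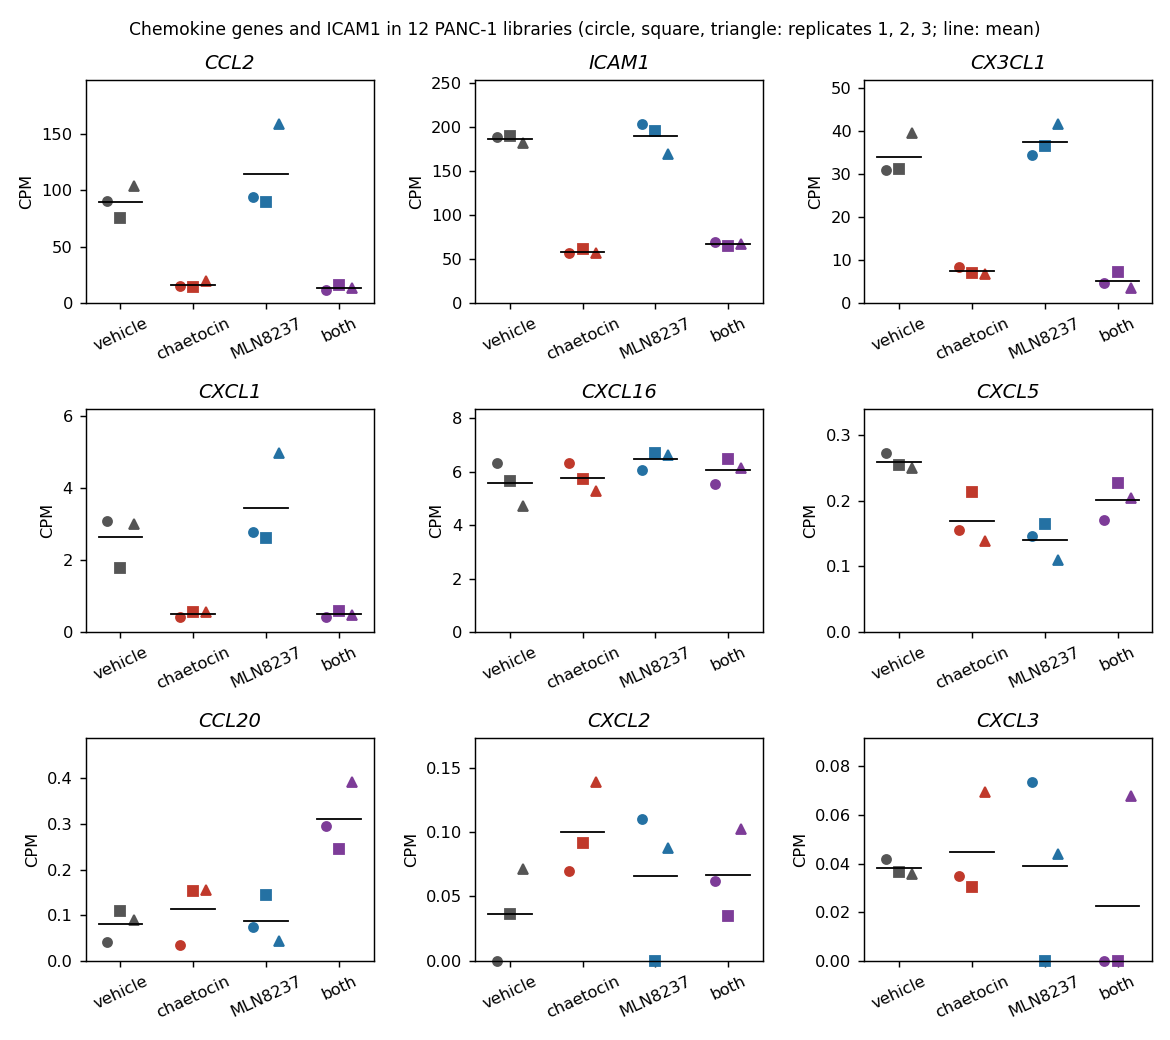
Scaled CPM (linear axes from 0) of the 9 genes in 12 libraries, with circles, squares and triangles for replicates 1, 2 and 3 and a line at each group mean. CCL2, ICAM1, CX3CL1 and CXCL1 separate into libraries without and with chaetocin, while CXCL2 and CXCL3 rest on at most 8 counts per library.

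The members that did not fall differed among themselves. CXCL16, the membrane-bound ligand of CXCR6, had 6.33, 5.66 and 4.72 CPM in vehicle, 6.32, 5.75 and 5.28 with chaetocin, 6.08, 6.69 and 6.63 with MLN8237 and 5.54, 6.49 and 6.16 with both. All 4 groups overlapped, and its log2 fold change with chaetocin was 0.06 ± 0.136 (95% interval -0.24 to 0.35, edgeR adjusted p = 0.818). This interval contains no decrease as large as that of any of the 4 lowered members. CXCL16 overlaps MED11, a Mediator subunit gene, which itself went from 10.4 ± 0.748 to 7.41 ± 1.11 CPM (log2 fold change -0.49 ± 0.160, adjusted p = 0.0417).

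CXCL5, a further CXCR2 ligand, had 0.273, 0.255 and 0.250 CPM in vehicle against 0.156, 0.213 and 0.139 with chaetocin, 0.147, 0.165 and 0.110 with MLN8237 and 0.171, 0.227 and 0.204 with both. The vehicle libraries were the 3 highest of the 12, but they held only 41 counts together. The log2 fold change of CXCL5 was -0.60 with chaetocin (95% interval -1.37 to 0.17, edgeR adjusted p = 0.253), -0.87 with MLN8237 (-1.67 to -0.06, adjusted p = 0.516) and -0.37 with both (-1.13 to 0.39, adjusted p = 0.444). With CXCL5, 5 members had chaetocin libraries wholly below the vehicle libraries, as had 23.9% of all genes tested, and 0 had them wholly above, as had 24.2%.

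CCL20, the ligand of CCR6, had 0.0419, 0.110 and 0.0894 CPM in vehicle, 0.0347, 0.152 and 0.156 with chaetocin, 0.0735, 0.145 and 0.0439 with MLN8237 and 0.296, 0.245 and 0.391 with both. The combination libraries lay above all others, on 56 counts against 13 in vehicle. Against vehicle its log2 fold change with both compounds was 1.9 ± 0.569 (3.74-fold higher, edgeR adjusted p = 0.0179), and with chaetocin alone 0.49 ± 0.625 (95% interval -0.86 to 1.84, adjusted p = 0.625). CCL20 passed the count filter only through the combination group, where it is high, so this p depends on the filter and CCL20 is not counted below among the members called. With no filter, over 41618 genes, the log2 fold change was 1.88 ± 0.641 (edgeR adjusted p = 0.0264). With the filter, the call was lost without vehicle replicate 1 (adjusted p = 0.069) or combination replicate 3 (adjusted p = 0.0614).

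CXCL2 and CXCL3, the other CXCR2 ligands of the chromosome 4 run, were tested only with no filter. CXCL2 had 0, 2 and 4 counts in vehicle, 4, 6 and 8 with chaetocin, 6, 0 and 4 with MLN8237 and 4, 2 and 6 with both. CXCL3 had 2 counts in each vehicle library, 2, 2 and 4 with chaetocin, 4, 0 and 2 with MLN8237 and 0, 0 and 4 with both. The groups overlapped throughout and all of these counts were even. With no filter the log2 fold change with chaetocin was 1.37 for CXCL2 (95% interval -0.55 to 3.3, edgeR adjusted p = 0.461) and 0.22 for CXCL3 (-2.2 to 2.65, adjusted p = 1.0), and neither gene was called in any comparison. A difference was not detectable at this depth.

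With MLN8237 alone, no member was called. Only 0.00438% of all genes tested were called in this comparison (edgeR), 1938 genes had an unadjusted p under 0.05, and CXCL5 was the 1 member among them; DESeq2 also called 0 members. The log2 fold changes were 0.34 for CCL2 (95% interval -0.10 to 0.79), 0.39 for CXCL1 (-0.21 to 0.99), 0.15 for CX3CL1 (-0.27 to 0.56) and 0.02 for ICAM1 (-0.16 to 0.20). The third MLN8237 library was the highest of all 12 for CCL2, CXCL1 and CX3CL1 and the lowest of those without chaetocin for ICAM1. CXCL5 was the 1 member whose MLN8237 libraries lay wholly below vehicle, as did 7.06% of all genes, and 0 lay wholly above, as did 6.96%. Without the third MLN8237 library, the log2 fold change was 0.03 for CCL2, 0.04 for CXCL1, 0.07 for CX3CL1 and 0.09 for ICAM1.

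With both compounds, the same 4 members fell against vehicle, where 38.5% of all genes tested were called, 18.3% lower and 20.1% higher. Counting libraries that did not overlap, 5 members lay below vehicle (27.4% of all genes) and 1 above (27.5%). This comparison shares its vehicle libraries with the comparison of chaetocin alone. The combination against MLN8237 shares no library with chaetocin against vehicle, and asks what chaetocin did in cells that also had MLN8237. There the 4 members were lower again, where 45.9% of all genes were called, 22.7% lower and 23.3% higher. The libraries of 4 members lay wholly below those with MLN8237 (24.5% of all genes) and those of 2, CCL20 and CXCL5, wholly above (26.8%). The log2 fold change was -3.07 ± 0.224 for CCL2 (8.42-fold lower, edgeR adjusted p = 1.66e-06), -2.88 ± 0.211 for CX3CL1 (adjusted p = 1.66e-06), -2.82 ± 0.314 for CXCL1 (adjusted p = 2.95e-05) and -1.50 ± 0.0861 for ICAM1 (adjusted p = 6.34e-07). For CCL20, admitted to the test by the same combination libraries, it was 1.8 ± 0.570 (adjusted p = 0.0203, and 0.0329 with no filter), a call lost without MLN8237 replicate 1 (adjusted p = 0.0568), MLN8237 replicate 3 (0.0645) or combination replicate 3 (0.0614).

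**Figure D2:**
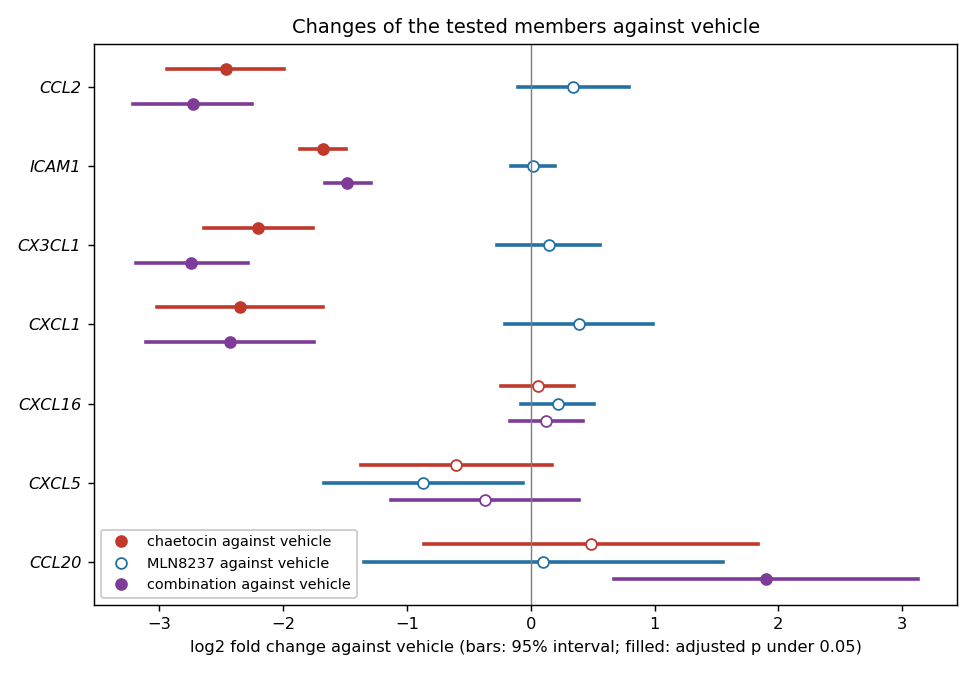
Log2 fold change of the 7 tested genes against vehicle with 95% intervals (horizontal axis), for chaetocin, MLN8237 and both compounds; filled points have an edgeR adjusted p under 0.05. The intervals of CCL2, ICAM1, CX3CL1 and CXCL1 lie below 0 with chaetocin and with both, and none of the MLN8237 points is filled.

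The combination was then set against chaetocin alone. No member was called and 0.0% of all genes tested were (edgeR), although 2677 genes had an unadjusted p under 0.05, CX3CL1, CCL20 and ICAM1 among them, and DESeq2 called 0 members but 100 genes lower and 196 higher. CX3CL1 was lower by a log2 fold change of -0.54 (95% interval -0.98 to -0.09, edgeR adjusted p = 0.344). Without combination replicate 2 this was -0.85 (adjusted p = 0.0291), so that 1 library decides the call. ICAM1 differed by 0.20 (0.01 to 0.38, adjusted p = 0.395), with combination libraries wholly above chaetocin libraries, as for CCL20 and for 9.54% of all genes. No member had them wholly below, as 9.15% of all genes had. CCL20 differed by 1.41 (0.27 to 2.56, adjusted p = 0.338), CCL2 by -0.27 (-0.73 to 0.19) and CXCL1 by -0.08 (-0.80 to 0.64).

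The interaction term measured whether the log2 change with both compounds departed from the sum of the changes with each. It was called for 0 members and for 0.0% of all genes by edgeR; 3108 genes and 1 member, CX3CL1, had an unadjusted p under 0.05, and DESeq2 called 0 members. The term was -0.68 for CX3CL1 (95% interval -1.29 to -0.07, edgeR adjusted p = 0.362), -0.61 for CCL2 (-1.25 to 0.03), -0.47 for CXCL1 (-1.41 to 0.47) and 0.18 for ICAM1 (-0.08 to 0.44). For CXCL5 it was 1.10 (-0.02 to 2.22) and for CCL20 1.31 (-0.56 to 3.18), wide intervals on few counts.

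**Figure D3:**
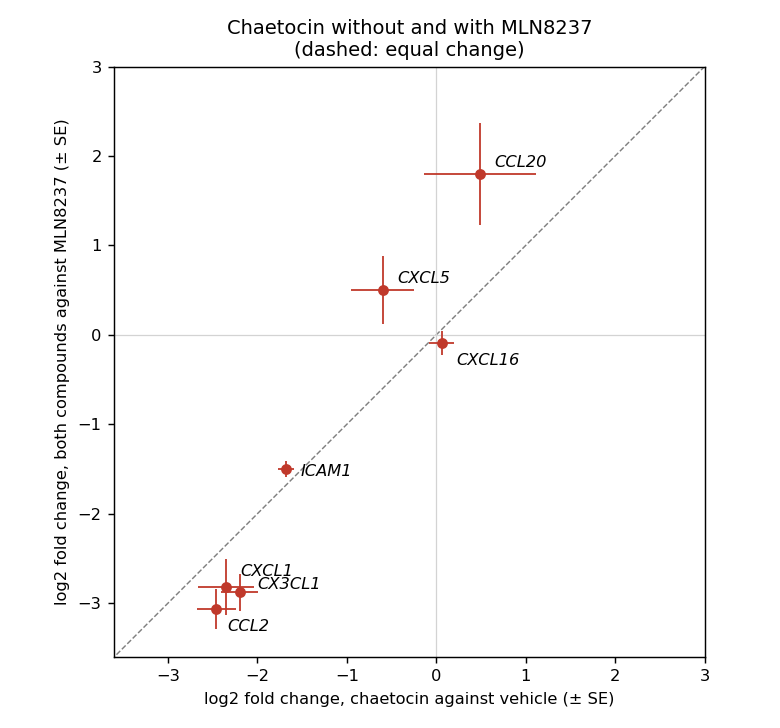
Log2 fold change (± SE) with chaetocin against vehicle (horizontal axis) and with both compounds against MLN8237 (vertical axis) for the 7 tested genes; the 2 comparisons share no library, and the dashed line marks equal change. On the vertical axis CCL2 lies at -3.07, CX3CL1 at -2.88, CXCL1 at -2.82, ICAM1 at -1.50 and CCL20 at 1.8.

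Without the 3 treated libraries numbered 3, an alternative chosen after seeing the data, CCL2, CXCL1, CX3CL1 and ICAM1 kept their calls with chaetocin, at log2 fold changes of -2.59, -2.41, -2.14 and -1.66, and in both comparisons of the combination with a group lacking chaetocin. CCL20 kept its call against vehicle and lost it against MLN8237 (log2 fold change 1.31, adjusted p = 0.151).

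The profile over 12 libraries was compared with that of every other tested gene by the root mean square difference of centred log2 CPM, a description with no test. CCL2 and CXCL1, which lie on different chromosomes, were each other's nearest gene, at 0.22, where CCL2 itself varied by 1.40 about its own mean. Next to CCL2 came CBLN2 (0.262) and ANO9 (0.302), and next to CXCL1 came ANO9 (0.338) and WNT10A (0.346). CX3CL1 was nearest to B3GNT7 (0.21), which fell from 63.8 ± 5.36 CPM in vehicle to 17.6 ± 1.52 with chaetocin, then to ANO9 (0.282) and CCL2 (0.303). ANO9 itself went from 27.2 ± 2.66 to 5.06 ± 0.598 CPM with chaetocin.

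None of the 3 nearest genes of ICAM1 was a chemokine gene. They were FGF11 (0.078), which went from 9.70 ± 0.523 CPM in vehicle to 3.21 ± 0.269 with chaetocin, RP11-104H15.10 (0.102), and the lipase gene LIPG (0.121), which went from 29.8 ± 2.26 to 10.1 ± 0.183 CPM. The flat CXCL16 was nearest to PDCD10 (0.0648), MAD2L1 (0.0675) and EAPP (0.0824), CXCL5 to ARF1P2 (0.158), PARP1P1 (0.177) and RP11-701H24.10 (0.18), and CCL20 to RN7SL832P (0.311), RP11-315O6.1 (0.352) and KRT8P50 (0.361).

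**Figure D4:**
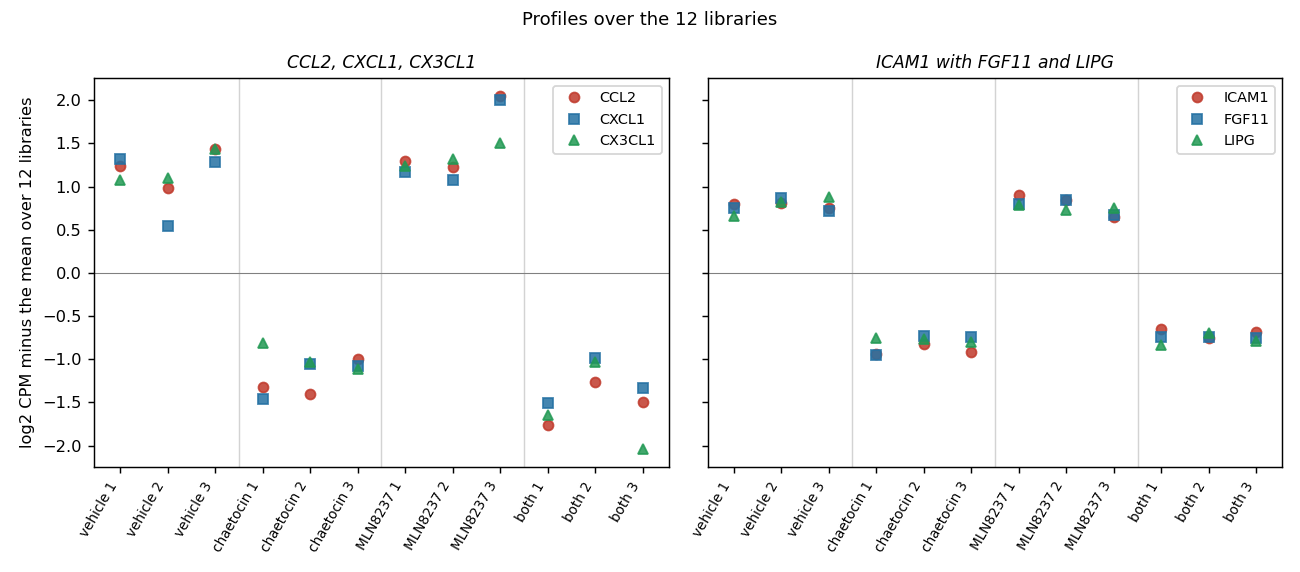
Log2 CPM of single libraries minus the mean over the 12 libraries (vertical axis), by group and replicate. CCL2, CXCL1 and CX3CL1 (left) spread more between replicates than ICAM1 with FGF11 and LIPG (right), whose points nearly coincide.

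Among the other chemokine ligands, 26 of 40 genes had a count and 7 were tested. With chaetocin 2 rose (12.6% of all genes tested) and 1 fell (11.9%), and with both compounds 3 rose (20.1%) and 1 fell (18.3%). Their median log2 fold change was 0.24 with chaetocin, beside 0.013 over all genes tested. CCL26, an eotaxin, rose from 0.0243 ± 0.0421 CPM to 0.824 ± 0.0946 with chaetocin (edgeR adjusted p = 0.000252), on 4 and 150 counts. CXCL11, an interferon-inducible CXCR3 ligand, rose from 6 to 39 counts (adjusted p = 0.0469). CCL26 and CXCL11 passed the count filter only through libraries with chaetocin, where they are high. Their p-values, and the counts of ligands that rose, therefore depend on the filter. CCL28, a mucosal chemokine, fell from 8.05 ± 0.466 to 4.38 ± 0.462 CPM (log2 fold change -0.88 ± 0.142, adjusted p = 0.000844). IL8, which encodes the CXCR2 ligand CXCL8, rose with both compounds, from 0.837 ± 0.254 to 1.65 ± 0.229 CPM (log2 fold change 0.98 ± 0.270, adjusted p = 0.0118), and had 1.10 ± 0.295 CPM with chaetocin (adjusted p = 0.324).

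Of 24 listed chemokine receptor genes, 10 were tested. With chaetocin 3 rose (12.6% of all genes) and 1 fell (11.9%), and with both 5 rose (20.1%) and 2 fell (18.3%). The median log2 fold change was 0.32 with chaetocin, also with the 2 receptors that had no vehicle count set at their bound. CCR4 had no count in vehicle and 74 with chaetocin, at least 21.6-fold higher against a floor of 3 counts over the vehicle group. CX3CR1, the receptor of CX3CL1, had 0, 17, 2 and 54 counts in vehicle, chaetocin, MLN8237 and combination, at least 4.96-fold higher with chaetocin. CCR4 and CX3CR1 passed the count filter only through libraries with chaetocin, where they are high. So did ACKR2, which was called higher with both compounds. These calls, and the counts of receptors that rose, therefore depend on the filter. CXCR5 fell from 90.9 ± 3.73 to 73.0 ± 5.19 CPM (log2 fold change -0.32 ± 0.105, edgeR adjusted p = 0.0422), and CCRL2 rose from 30 to 108 counts (adjusted p = 0.0208). Overlap of the receptor genes with other annotated genes was not examined, so reads counted for CXCR5 may not all be its own. GPR35 rose with both compounds (log2 fold change 1.02 ± 0.209, edgeR adjusted p = 0.00192). ACKR3, a scavenging receptor, did not pass the filter.

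Of 22 adhesion genes tested beside ICAM1, 10 fell (11.9% of all genes) and none rose (12.6%) with chaetocin. With both, 11 of them fell (18.3%) and 1 rose (20.1%). Their median log2 fold change was -0.42 with chaetocin and -0.30 with both. F11R, a tight junction molecule, went from 76.4 ± 2.19 to 48.5 ± 1.19 CPM (log2 fold change -0.65 ± 0.0925, edgeR adjusted p = 0.000346). L1CAM, a neural adhesion molecule also found on carcinoma cells, went from 249 ± 18.4 to 88.4 ± 18.9 CPM (-1.49 ± 0.225, adjusted p = 0.000529), and ALCAM from 26.1 ± 3.13 to 10.4 ± 2.24 CPM (adjusted p = 0.000604). PVRL1 (nectin-1) fell with chaetocin (adjusted p = 0.00774) and with both (adjusted p = 0.000201). VCAM1, another ligand of leukocyte integrins, was not tested for lack of counts.

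Of 29 NF-kB subunit, inhibitor and kinase genes, all tested, 4 rose (12.6% of all genes) and 10 fell (11.9%) with chaetocin. With both, 5 of them rose (20.1%) and 13 fell (18.3%). Their median log2 fold change was -0.16 with chaetocin and -0.30 with both. RELA had 134 ± 7.46 CPM in vehicle and 140 ± 5.8 with chaetocin (log2 fold change 0.06 ± 0.0963, edgeR adjusted p = 0.69), and NFKB1 had 59.4 ± 1.29 and 53.2 ± 2.12 CPM (-0.16 ± 0.0948, adjusted p = 0.254). The inhibitor gene NFKBIA, itself induced by NF-kB, fell from 59.1 ± 3.36 to 32.4 ± 3.62 CPM (-0.87 ± 0.141, adjusted p = 0.000832). TNFAIP3, which encodes the inhibitory enzyme A20, fell from 15.4 ± 0.664 to 7.15 ± 1.09 CPM (-1.10 ± 0.138, adjusted p = 0.000143).

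The genes that fell in this list act in opposite directions on the pathway. MAP3K14, the kinase of the non-canonical branch, went from 115 ± 6.05 to 68.1 ± 1.08 CPM (log2 fold change -0.76 ± 0.101, edgeR adjusted p = 0.000231). CYLD, a deubiquitinase that restrains signalling, went from 14.9 ± 1.47 to 8.22 ± 0.863 CPM (-0.86 ± 0.124, adjusted p = 0.000403). TAB1, an adaptor of the kinase TAK1, fell with chaetocin (adjusted p = 0.00209) and with both (adjusted p = 0.000178).

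Other genes linked to NF-kB moved both ways. Of 29 secreted and response genes tested, 4 rose (12.6% of all genes) and 12 fell (11.9%) with chaetocin. With both, 8 of them rose (20.1%) and 13 fell (18.3%). The median log2 fold change of the list was -0.32 with chaetocin. Those that rose with chaetocin were MMP3 and CSF3, with no count in vehicle, IL23A (80 to 217 counts) and C3 (29 to 87). MMP3 and CSF3 passed the count filter only through libraries with chaetocin, where they are high, so their calls depend on the filter. PLAU, urokinase, fell from 502 ± 9.74 to 157 ± 2.73 CPM (-1.68 ± 0.0865, edgeR adjusted p = 3.15e-07), TAP1, a peptide transporter gene, from 100 ± 3.48 to 54.7 ± 2.41 CPM (adjusted p = 3.09e-05) and BIRC3, an apoptosis inhibitor, from 284 ± 10.8 to 132 ± 8.90 CPM (adjusted p = 8.32e-05). Of 36 inflammatory cytokine and receptor genes tested, 9 rose (12.6% of all genes) and 7 fell (11.9%) with chaetocin. With both, 10 of them rose (20.1%) and 9 fell (18.3%). LTA and IL18R1, which rose in both comparisons, also passed the filter only through libraries with chaetocin. The median of this list was -0.11 with chaetocin. LTB, lymphotoxin beta, fell from 2.57 ± 0.850 to 0.104 ± 0.0303 CPM (-4.58 ± 0.334, adjusted p = 2.22e-06), whereas IL18, a cytokine gene, rose from 45.0 ± 0.997 to 140 ± 20.7 CPM (1.63 ± 0.164, adjusted p = 2.88e-05). TNFRSF1B, a TNF receptor gene, fell from 12.7 ± 0.744 to 6.31 ± 0.40 CPM (adjusted p = 5.29e-05), and the kinase gene IRAK2 from 50.7 ± 1.29 to 32.8 ± 1.20 CPM (adjusted p = 0.000107).

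Proteases linked to the release of membrane-bound CX3CL1 and CXCL16, their regulators and their inhibitors formed a list of 17 genes, all tested. With chaetocin 1 rose (12.6% of all genes tested) and 9 fell (11.9%), and with both 2 rose (20.1%) and 10 fell (18.3%). Their median log2 fold change was -0.38 with chaetocin. These counts mix opposite roles, since the protease inhibitor genes TIMP2, which fell with chaetocin and with both, and TIMP3, which rose with both, are among them. ADAM10, the protease of constitutive CX3CL1 and CXCL16 release, went from 140 ± 5.81 to 81.0 ± 12.1 CPM with chaetocin (log2 fold change -0.79 ± 0.151, edgeR adjusted p = 0.0023). ADAM17, the protease of induced release, had 59.6 ± 3.53 and 59.0 ± 4.04 CPM (-0.01 ± 0.092, adjusted p = 0.932). TSPAN15, a tetraspanin that partners ADAM10, went from 234 ± 5.32 to 91.8 ± 7.88 CPM (-1.35 ± 0.175, adjusted p = 0.000184), MMP2 from 75.6 ± 3.16 to 34.5 ± 1.92 CPM (adjusted p = 1.02e-05) and MMP14 from 22.3 ± 1.12 to 12.5 ± 0.227 CPM (adjusted p = 3.59e-05).

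Regulators of mRNA decay numbered 18, all tested. They include factors that act on AU-rich messages, a class to which many chemokine transcripts belong, and more general decay factors. With chaetocin 1 rose (12.6% of all genes tested) and 1 fell (11.9%), and with both 5 rose (20.1%) and 3 fell (18.3%). Their median log2 fold change was -0.05 with chaetocin. ZFP36, which encodes the decay factor tristetraprolin, rose from 126 ± 8.64 CPM in vehicle to 218 ± 26.3 with chaetocin (0.80 ± 0.132, edgeR adjusted p = 0.000943) and to 310 ± 55.6 with both (1.30 ± 0.133, adjusted p = 1.69e-05). TIA1, a translation repressor gene, fell from 80.6 ± 6.36 to 52.9 ± 4.29 CPM with chaetocin (adjusted p = 0.00326). With both compounds ELAVL1, which encodes the stabilising factor HuR, went from 140 ± 7.58 to 106 ± 9.22 CPM (adjusted p = 0.0026) and RC3H1, roquin-1, from 26.1 ± 3.64 to 40.4 ± 7.07 CPM (adjusted p = 0.0019). MLN8237 alone gave no call in any of these lists, where 0.00438% of all genes tested were called.

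**Figure D5:**
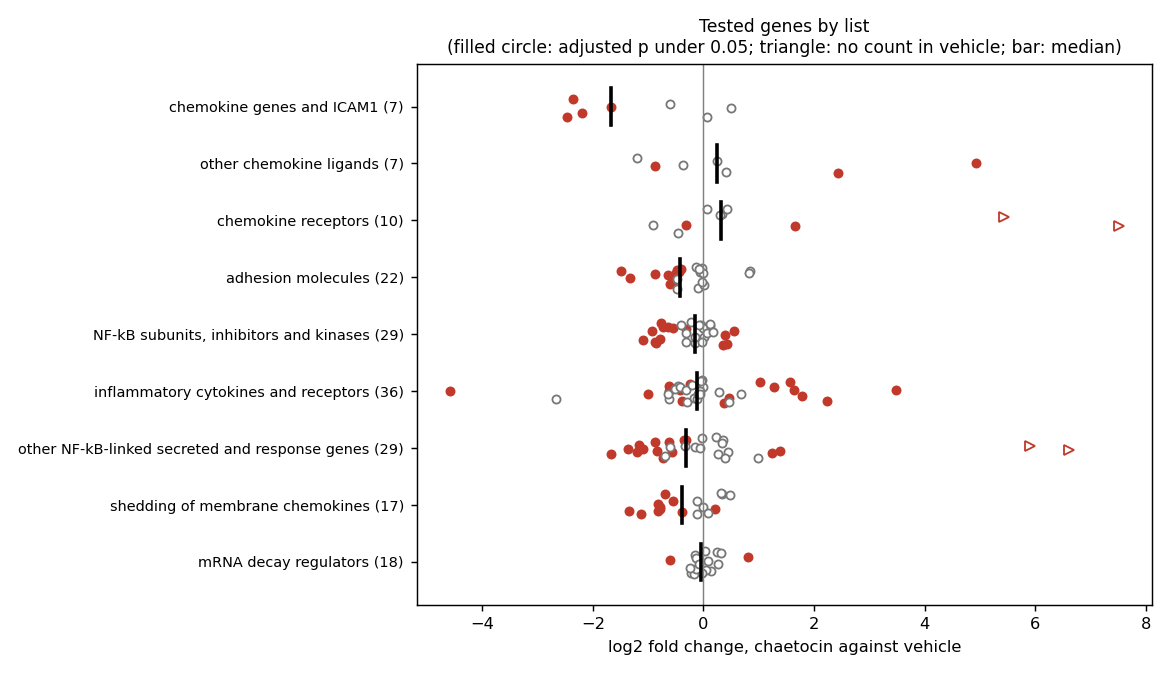
Log2 fold change with chaetocin against vehicle (horizontal axis) of the tested members and of the tested genes of 8 lists, with the number tested in brackets; filled circles have an edgeR adjusted p under 0.05, triangles mark genes with no count in vehicle, whose fitted value depends on the prior count, and bars mark medians. The adhesion list has called genes below 0 and none above, while the cytokine and response lists have called genes on both sides.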

How the data were processed

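The table deposited by the authors gives each gene a raw count and an RPKM value (the count scaled to gene length and library size) in every library. The submitters' processing notes name hg19, HTSeq, TopHat 12.0.6 and CASAVA 1.9, without roles; whether counting used strand is not stated there. The test ran on the deposited counts in R 4.3.3 with edgeR 4.0.16: filterByExpr by group, TMM scaling, a robust quasi-likelihood fit over the 4 groups, and Benjamini-Hochberg adjustment over all genes tested, with calls at adjusted p under 0.05. Levels per length were computed from the counts and the deposited gene length. Log2 CPM profiles used a prior count of 2. The test was checked on simulated data with the same spread for every gene. The simulation held neither the excess of even counts nor the set-apart libraries numbered 3, so it does not cover the low members. Alternatives were RLE scaling, no filter or a filter of 1 CPM in 6 libraries, DESeq2 1.42.0, limma 3.58.1 (voom), only the groups compared, a replicate block and leaving out each library. All 9 members are named. Of each list, up to 3 genes with the smallest p in chaetocin or combination against vehicle are named, plus pathway genes by role. Outside this rule, TIMP2, TIMP3, PTPRC, CSF1R, ITGAM, VWF, GPR35, MMP3, CSF3, IL23A and C3 were named after their values were seen. The same holds for CX3CR1, ACKR2, LTA and IL18R1. The members and lists were chosen with earlier results of these data known. A marker gene of the leukocyte list is not reported here.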

Additional observations from a re-analysis of the deposited data

How the results depend on the processing

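Leaving CCL20 out, the counts of called members stayed at 4, 0, 4, 0, 4 and 0. The order is chaetocin, MLN8237 and combination against vehicle, combination against chaetocin and against MLN8237, then interaction. They held with RLE scaling, no filter, the strict filter, DESeq2, limma-voom and the replicate block. CCL20, admitted by the combination libraries where it is high, was called besides in both comparisons of the combination with a group lacking chaetocin. Under the strict filter CCL20 was not tested. With only the groups compared, for which no interaction was fitted, the counts were the same. Without combination replicate 2, 1 member, CX3CL1, was called against chaetocin (0 to 1 over the left-out libraries), and 280 genes were called lower and 300 higher where no gene was called with all libraries. The vehicle level of ICAM1 was 48.9 from summed gene counts and 47.8 in the deposited RPKM. Uncalled log2 fold changes changed sign as single libraries were left out: CXCL16 with chaetocin ran from -0.05 to 0.16, CCL20 with MLN8237 from -0.44 to 0.39, ICAM1 with MLN8237 from -0.04 to 0.09, and CXCL1 in the combination against chaetocin from -0.25 to 0.04. In that comparison CXCL1 was at 0.01 and CXCL16 at -0.0048 without the 3 treated libraries numbered 3. The cause was not tested. Over all genes, chaetocin lowered 2717 and raised 2874, against 1807 and 1872 without vehicle replicate 2 and 1783 lowered without chaetocin replicate 2. The combination against chaetocin had 0 called genes with edgeR, 100 lower and 196 higher with DESeq2, and 9 and 27 with no filter; the interaction had 0 with edgeR and 4 and 11 with DESeq2. Same-numbered libraries had correlations of deviations from -0.153 to 0.462, the highest among treated libraries numbered 3. In none of the pairs of groups compared directly did all 3 same-numbered pairs exceed 0.1. For chaetocin and MLN8237, which meet only in the interaction, all did (0.314, 0.119 and 0.441). MLN8237 and the combination had 0.318, 0.093 and 0.436. The numbers were not taken to pair the samples, but these values do not exclude a pairing. The replicate block changed no member's call. Depth limits CXCL2, CXCL3, CXCL5 and CCL20.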
